A study of Mus musculus with 6 samples.

Results

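Accessibility was examined at 46 SP1 sites around 5 genes of the pluripotent state in the mouse: Tfcp2l1, Prdm14, Nr5a2, Lin28b and Lif. A site belonged to a locus when its midpoint lay inside the gene or within 50000 bp of either end, in RefSeq coordinates of GRCm38.p6, which is the mm10 build named in the submitters' processing notes. All 5 genes had sites, with 8 at Tfcp2l1, 10 at Prdm14, 11 at Nr5a2, 9 at Lin28b and 8 at Lif, out of 9001 sites listed. The listed sites lie on chromosomes 1 and 10 and on chromosome 11 up to position 2.02e+07, called the listed regions below. Genes elsewhere could not be examined. The comparison is between neural progenitor cells (NPC) and embryonic stem cells (ESC) of the mouse line R1, each with 3 ATAC-seq libraries and no other treatment or genotype in the labels. ATAC-seq counts DNA fragments released by the Tn5 transposase, so a higher count at a site means that its chromatin was more accessible. Nothing in the labels ties the 3 libraries of a cell type to separate cultures, and the spread behind the deposited p-values may therefore be technical. The libraries were not analysed one by one here, so each site is given by the deposited standard error and adjusted p alone, and the sequencing depth is unknown. Position alone leaves unmeasured which gene, if any, a site regulates.

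Mouse embryonic stem cells are kept undifferentiated by the cytokine LIF, which binds a receptor containing gp130 and activates the transcription factor STAT3. Tfcp2l1 is a transcription factor of naive pluripotency that acts downstream of this pathway. Prdm14 is a PR-domain zinc-finger protein that keeps FGF signalling and de novo DNA methylation low in stem cells and is needed for primordial germ cells. Nr5a2, also called LRH-1, is an orphan nuclear receptor that binds regulatory DNA of the pluripotency gene Pou5f1. Lin28b is an RNA-binding protein that blocks the maturation of let-7 microRNAs, and Lif encodes the LIF ligand itself. SP1 is a widely expressed zinc-finger factor that binds GC-rich DNA, so the sites below are places of SP1 binding and not an unbiased sample of the regulatory DNA of these genes.

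At these loci accessibility fell from ESC to NPC at 27 of 46 sites (58.7%) and rose at 8 (17.4%), and the remaining 11 had no call. A call means that the authors' deposited table has an adjusted p below 0.05, with the direction, NPC over ESC, taken from the name of that table. Over all 9001 listed sites, 32.6% fell and 22.8% rose by the same rule. The median log2 fold change of the 46 sites was -2.12, against -0.29 over all listed sites. Every locus had at least 1 fall, and 4 of 5 had a rise, Tfcp2l1 being the exception. The counts of each locus are a description, and no difference between loci was tested. Tfcp2l1 fell throughout, Prdm14 and Lin28b fell at 6 sites each with 1 rise each, Nr5a2 had 4 falls and 2 rises, and Lif had 3 falls and 4 rises. With a 100000 bp window Nr5a2 had 10 falls and 3 rises among 19 sites, and with 25000 bp Lif had 1 fall and 2 rises among 4. Of the 8 rises, 6 lay outside the member gene.

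**Figure D1:**
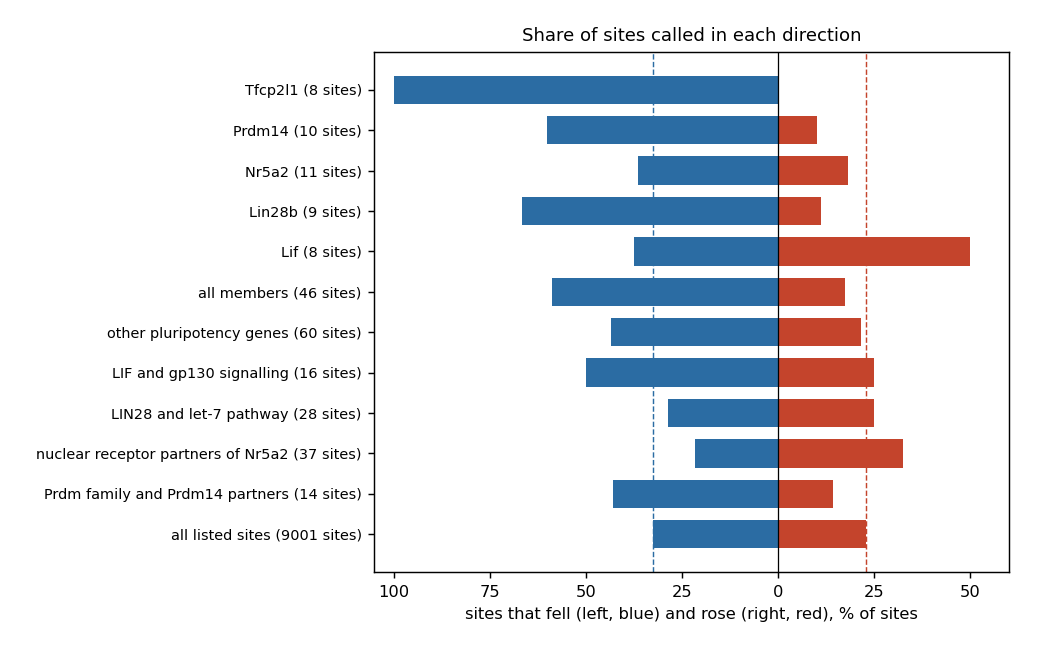
Share of SP1 sites that fell (bars to the left) and rose (bars to the right) in NPC against ESC, in percent of the sites of each locus or gene list, with dashed lines at the shares of all 9001 listed sites. Tfcp2l1 reaches 100% on the side of falls, and Lif has the largest bar of rises among the 5 loci, at 50%.

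Sites with SP1 over an annotated start of transcription came first, because there the site, the promoter DNA and the gene can be named together. RefSeq start sites were at hand for Tfcp2l1, Lin28b, Lif and 2 starts of Nr5a2. An SP1 site covered the start of Tfcp2l1 and the inner of the Nr5a2 starts. No listed site reached the 250 bases before the outer Nr5a2 start, the listed Lin28b start or the Lif start. That Lin28b start lies inside the gene, and no start was at hand at the gene's 5′ end. A listed SP1 site spans that 5′ end, as given below with the locus. In the listed regions as a whole, 1256 of 3876 start sites (32.4%) had an SP1 site over those bases. The upstream bases of the covered starts of both genes, and of the uncovered outer start of Nr5a2, are shown 5′ to 3′ on the strand of the gene, from RefSeq, build GRCm38.p6. Capitals mark the GC box GGGCGG, the GT box written GGGTGG and the related form GGGCGTG, each on either strand, which are letters of the GC-rich elements that SP1 binds.
Tfcp2l1 start, chr1:118627695-118627944, plus strand: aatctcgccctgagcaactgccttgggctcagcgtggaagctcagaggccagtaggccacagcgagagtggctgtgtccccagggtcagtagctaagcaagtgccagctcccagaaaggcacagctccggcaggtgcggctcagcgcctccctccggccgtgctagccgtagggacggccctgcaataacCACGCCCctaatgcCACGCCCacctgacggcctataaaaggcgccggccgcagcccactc
Nr5a2 inner start, chr1:136953631-136953880, minus strand: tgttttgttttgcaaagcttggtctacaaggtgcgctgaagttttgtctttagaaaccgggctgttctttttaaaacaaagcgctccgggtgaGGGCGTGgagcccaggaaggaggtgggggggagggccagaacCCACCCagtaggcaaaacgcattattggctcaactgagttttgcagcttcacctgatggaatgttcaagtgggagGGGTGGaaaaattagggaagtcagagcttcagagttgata
Nr5a2 outer start, chr1:136960449-136960698, minus strand: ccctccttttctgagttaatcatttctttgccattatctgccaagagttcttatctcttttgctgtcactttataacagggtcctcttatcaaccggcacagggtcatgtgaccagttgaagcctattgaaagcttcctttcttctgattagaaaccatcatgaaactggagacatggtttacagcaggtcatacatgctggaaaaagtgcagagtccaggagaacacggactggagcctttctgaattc

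Before the Tfcp2l1 start the reverse complement of GGGCGTG occurred 2 times, at 60 and 46 bases before the start, whereas neither GGGCGG nor the GT box occurred. The same 250 bases held TATAAA 28 bases before the start and had a GC content of 65.2%. Before the inner Nr5a2 start GGGCGTG occurred 1 time, 157 bases upstream, and GGGTGG occurred 1 time on each strand, at 115 and 40 bases upstream, with a GC content of 49.6%. None of these 3 motifs occurred before the outer Nr5a2 start, at 43.2% GC, or before the listed Lin28b start inside the gene, at 39.2% GC. The bases before the 5′ end of Lin28b were not searched. The bases before the Lif start, at 63.6% GC, held GGGTGG 2 times, the 2 matches sharing 1 base, and neither of the others. Over 32817 RefSeq start sites, 32.7% of such windows held GGGCGG, 28.1% held GGGTGG, 7.54% held GGGCGTG and 12.4% held TATAAA on either strand. In the listed regions, of 1256 windows with an SP1 site, 59.0% held GGGCGG, 34.2% GGGTGG, 14.9% GGGCGTG and 5.49% TATAAA. Of 2620 windows without one, the shares were 19.0%, 25.1%, 4.96% and 15.5%. Most covered windows thus held GGGCGG, which the 250 bases before both covered member starts lacked. The remaining bases of these SP1 sites were not searched. The covered start of Castor1, a gene in the Lif window, did hold GGGCGG, 1 time. GGGCGTG was added to the search after the sequences had been read. A match of these letters is a description of the DNA and not a measured binding site.

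Both covered starts fell in NPC, as did the start of Castor1, a neighbour of Lif that encodes an arginine sensor of the mTORC1 pathway. Among the start sites of the RefSeq promoter table, member sites held these 3, and 14.3% of the 981 listed sites holding a start site fell. For Tfcp2l1 the start-site window, chr1:118627650-118628150, had a mean signal of 18.6 and in the authors' deposited table a log2 fold change at -1.77 ± 0.41 (SE, adjusted p = 6.84e-05). At the inner start of Nr5a2 the window chr1:136953542-136954042 had a mean signal of 22.2, the highest of the 46 sites, and the authors' deposited table lists -4.83 ± 0.75 (SE, adjusted p = 3.53e-09) for it. The Castor1 start had a mean signal of 20.6 and -0.85 ± 0.38 in the authors' deposited table (SE, adjusted p = 0.0202). That call was lost with an adjusted p below 0.01 and with an absolute log2 fold change above 1 required. It was also lost with recomputed p-values, alone or together with centring, where the value was -0.56.

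Mean signal is the normalized count of a site averaged over both cell types, so with the fold change it implies a level in each. These implied levels are arithmetic on 2 deposited values and carry no error of their own. If the deposited fold changes were shrunk towards 0, as recomputed p-values at least as large as the deposited ones at all 46 sites would allow, the implied levels lie too close together. At the Tfcp2l1 start the implied normalized counts were 28.8 in ESC and 8.43 in NPC. The inner Nr5a2 start went from 42.8 in ESC to 1.51 in NPC on this reckoning. Of the 27 falls, 12 had an implied NPC level under 1, and of the 8 rises, 4 had an implied ESC level under 1. Such low counts on one side mean that the size of the fold depends on how the authors' fit treated few or no reads.

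**Figure D2:**
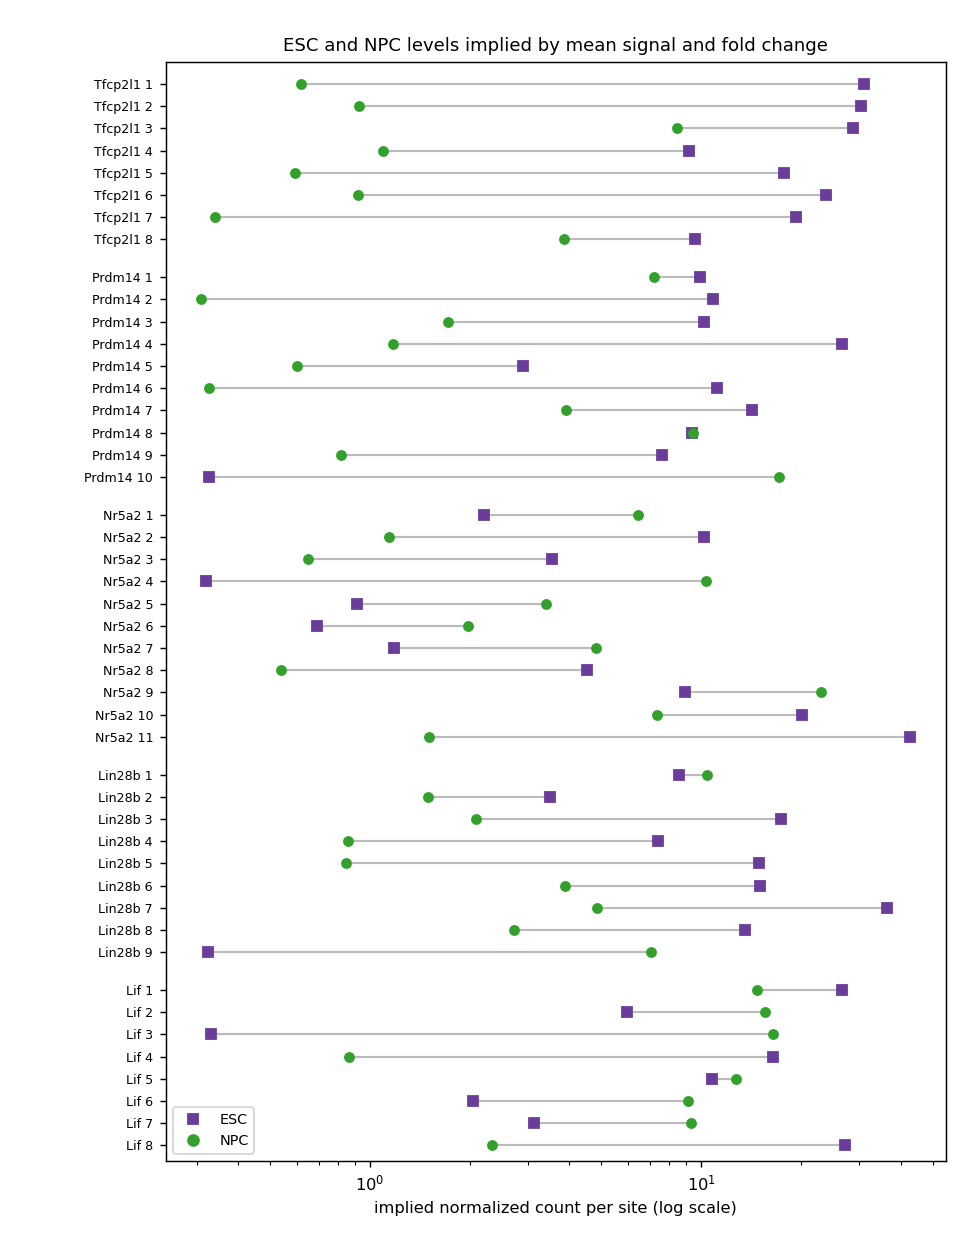
Normalized counts per site in ESC (squares) and NPC (circles) implied by the deposited mean signal and fold change of each of the 46 sites, numbered along each locus in order of coordinate, on a log scale and without error bars. The squares lie right of the circles at all 8 Tfcp2l1 sites, and the order is mixed at Nr5a2 and Lif.

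Tfcp2l1, on chromosome 1 from 118627923 to 118685168 and 57.2 kb long, had a fall at each of its 8 sites. These sites crowded into 24.9 kb, from 2.49 kb before the gene to 22.4 kb inside it, although the window reached 50000 bp beyond both ends. No listed site lay in the rest of the gene or beyond it, nor in the part of the neighbouring Clasp1, a microtubule-binding protein gene, that the window took in. Mean signal ran from 5.15 to 18.6 per site, and all 8 sites were above the lower quartile of the listed sites, 3.38.

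Upstream of the Tfcp2l1 start stood an overlapping pair of sites that share 198 bp. The first, chr1:118625183-118625683, had a mean signal of 15.8 and -5.65 ± 1.14 as its log2 fold change in the authors' deposited table (SE, adjusted p = 2.08e-06), an implied 31.0 normalized counts in ESC against 0.618 in NPC. Its partner, chr1:118625485-118625985, had -5.03 ± 1.00 in the authors' deposited table (SE, adjusted p = 2.32e-06). The implied NPC level was under 1 at both, against 8.43 at the start site.

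Inside Tfcp2l1, 5 sites fell. The site 18.0 kb into the gene, chr1:118645652-118646152, had the lowest log2 fold change of all 46 sites, -5.84 ± 1.16 in the authors' deposited table (SE, adjusted p = 1.43e-06), or 57.1-fold, which puts it at percentile 0.7 of the listed sites. Another overlapping pair stood 14.6 and 14.9 kb into the gene, at chr1:118642242-118642742 and chr1:118642563-118643063, with -4.91 ± 1.16 and -4.70 ± 1.01 in the authors' deposited table (adjusted p = 4.88e-05 and 1.18e-05). The remaining sites of the gene changed less. At 5.88 kb the authors' deposited table lists -3.07 ± 0.98 (SE, adjusted p = 0.00245), and the last site, 22.4 kb into the gene at chr1:118650061-118650561, had -1.31 ± 0.70 there (SE, adjusted p = 0.0457). That last fall is the member call nearest to the threshold. It was lost with an adjusted p below 0.01 and with recomputed p-values, alone or together with centred fold changes.

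**Figure D3:**
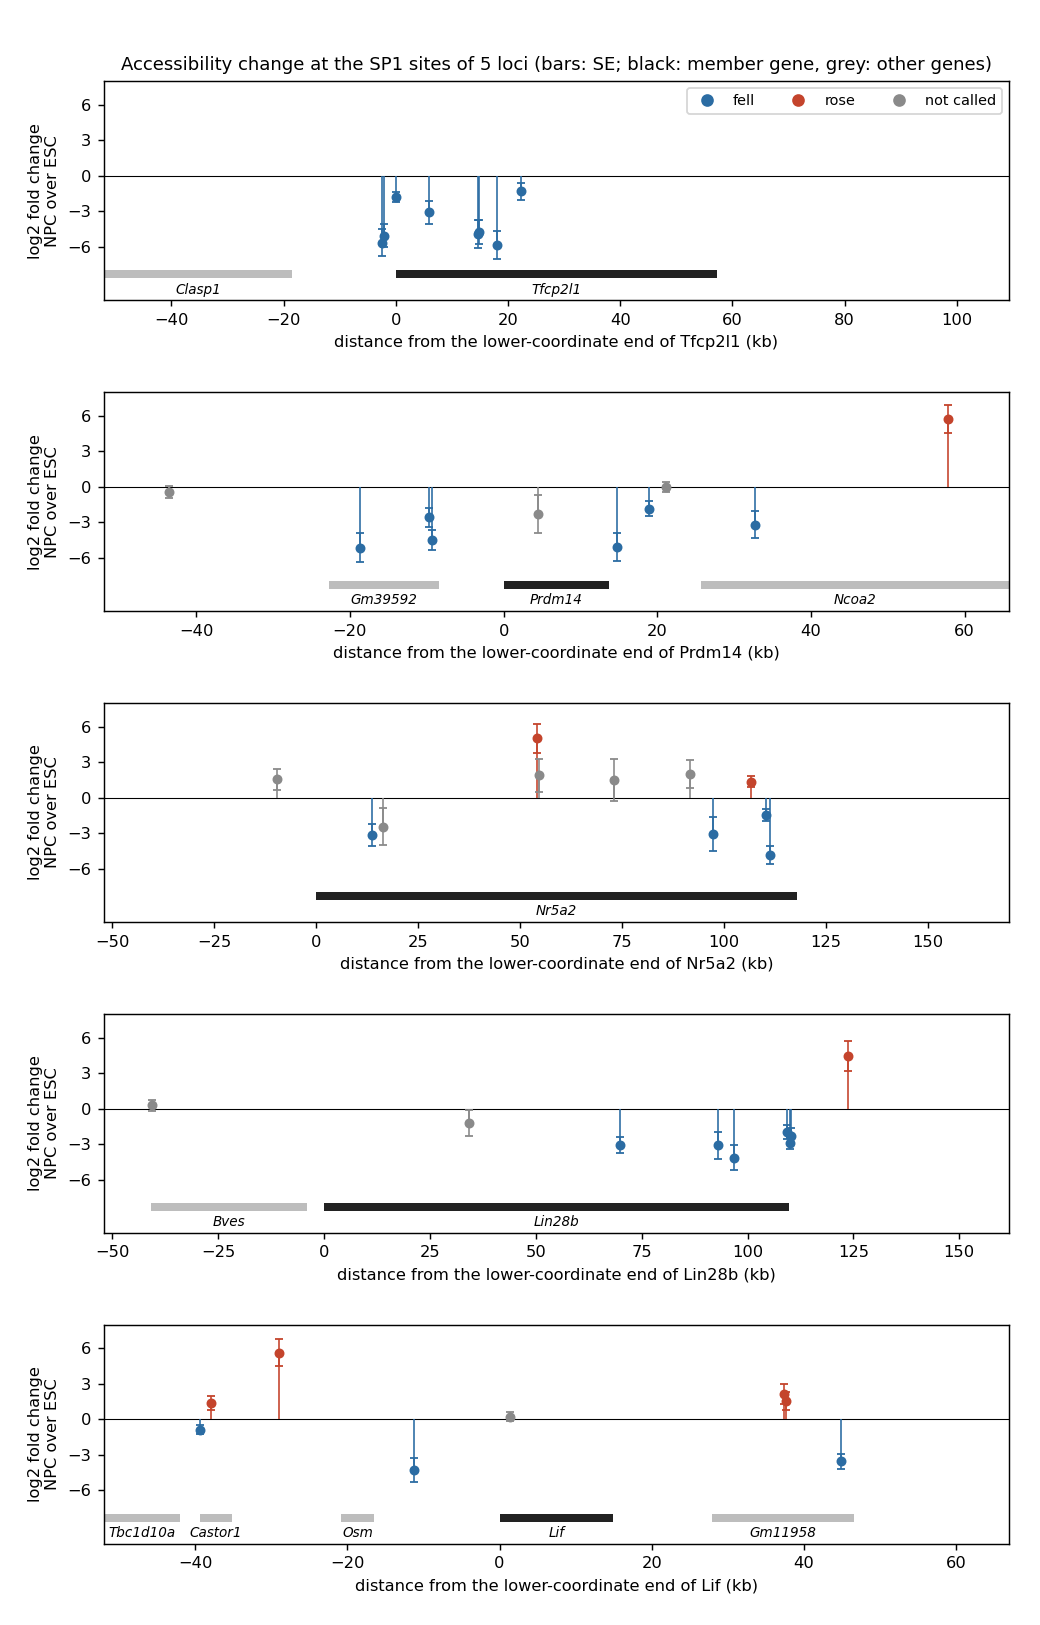
Log2 fold change of each SP1 site, NPC over ESC, against its distance in kb from the lower-coordinate end of the member gene, with the standard error as bars and the call as colour. Member genes are black and neighbouring protein-coding genes and lncRNAs grey. At Tfcp2l1 all 8 sites fell within 24.9 kb, whereas rises stand beyond the higher-coordinate ends of Prdm14 and Lin28b and inside Nr5a2.

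Prdm14, on chromosome 1 from 13113428 to 13127163, is a gene of 13.7 kb with a single SP1 site inside it. No start site or strand was at hand for Prdm14, so its sites are placed by coordinate only. That inner site, chr1:13117711-13118211, had the second-lowest mean signal of the 46 sites, 1.75, and the authors' deposited table lists -2.27 ± 1.60 (SE, adjusted p = 0.0972) for it. The 6 falls of the locus all lay outside the gene, on both sides.

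On the lower-coordinate side of Prdm14, 3 sites fell inside Gm39592, an annotated lncRNA. Of these, chr1:13103894-13104394, 9.28 kb from Prdm14, had the highest mean signal of the locus, 13.9, with -4.50 ± 0.87 in the authors' deposited table (SE, adjusted p = 1.45e-06) and implied counts of 26.6 in ESC and 1.17 in NPC. The site it overlaps by 51 bp, chr1:13103445-13103945, had -2.57 ± 0.82 in the authors' deposited table (SE, adjusted p = 0.00277). At 18.7 kb from the gene, chr1:13094486-13094986 had -5.14 ± 1.2 in the authors' deposited table (SE, adjusted p = 3.38e-05), on a mean signal of 5.60. A site 43.6 kb away on the same side was not called, at -0.46 ± 0.50 in the authors' deposited table (SE, adjusted p = 0.325).

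On the higher-coordinate side the site nearest to Prdm14, chr1:13127937-13128437, lay 1.02 kb from that boundary of the gene. It had -5.09 ± 1.21 in the authors' deposited table (SE, adjusted p = 4.62e-05). The level implied there was 11.1 normalized counts in ESC and 0.328 in NPC. At 5.15 kb the authors' deposited table has a smaller fall of -1.86 ± 0.64 (SE, adjusted p = 0.00454). The next site, chr1:13134250-13134750 had the smallest change of the 46 sites, 0.02 ± 0.43 in the authors' deposited table (SE, adjusted p = 0.972), on a mean signal of 9.43. A called fall and a site without a call thus stood side by side here, and the difference between the pair was not tested.

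The last sites of the Prdm14 window lie within Ncoa2, the gene of a nuclear receptor coactivator. One of them, chr1:13145887-13146387, fell with -3.22 ± 1.14 in the authors' deposited table (SE, adjusted p = 0.00516). The other, chr1:13171055-13171555, rose with 5.72 ± 1.16 in the authors' deposited table (SE, adjusted p = 2.39e-06), the highest value of the 46 sites, at 44.1 kb from Prdm14. Its implied counts were 0.326 in ESC and 17.2 in NPC. It was the single rise of the locus, and its midpoint is nearer to Ncoa2 than to Prdm14.

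Nr5a2, on chromosome 1 from 136842562 to 136960448, is 118 kb long and held 10 of its 11 sites within the gene. It was the locus with the lowest median mean signal, 4.34, and 5 of its sites had a mean signal under 3. No call was made at 5 sites, 4 fell and 2 rose. The median log2 fold change was 1.36, positive although falls outnumbered rises among the calls.

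The gene reads towards lower coordinates from both annotated starts, and its best-covered sites stood around the inner start. The start window itself fell, as given with the promoter sequences. Next to it, 0.679 kb downstream of that start, chr1:136952701-136953201 fell with -1.45 ± 0.50 in the authors' deposited table (SE, adjusted p = 0.00433), on a mean signal of 13.8 and with implied counts of 20.2 in ESC and 7.37 in NPC. At 4.52 kb downstream the direction turned, since chr1:136948861-136949361 rose with 1.36 ± 0.46 in the authors' deposited table (SE, adjusted p = 0.00347), on a mean signal of 15.9. The implied counts at that rise were 8.91 in ESC and 22.9 in NPC, so it was accessible in both cell types. These 3 sites carried the highest mean signals of the locus.

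Deeper in Nr5a2 the signals were low and the directions mixed. A fall of -3.07 ± 1.41 (SE, adjusted p = 0.0203) at 13.7 kb downstream of the inner start rested on a mean signal of 2.53 in the authors' deposited table. That fall was lost with an adjusted p below 0.01 and with recomputed p-values, alone or together with centring. At 19.4, 38.0 and 56.5 kb, log2 fold changes of 2.02 ± 1.18, 1.52 ± 1.78 and 1.89 ± 1.41 were listed without a call in the authors' deposited table. The strongest rise, chr1:136896383-136896883, had 5.01 ± 1.2 in the authors' deposited table (SE, adjusted p = 5.27e-05) at 57.0 kb, with implied counts of 0.321 in ESC and 10.4 in NPC. It overlaps the uncalled site with 1.89 by 3 bp, the one overlapping pair of 6 whose calls differed.

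Towards the far end of Nr5a2, 97.3 kb from the inner start, chr1:136856105-136856605 fell with -3.16 ± 0.95 in the authors' deposited table (SE, adjusted p = 0.00160). The neighbouring site, 94.6 kb from that start, had -2.45 ± 1.58 in the authors' deposited table (SE, adjusted p = 0.0748) and a mean signal of 2.1. Beyond the gene, chr1:136832770-136833270 had 1.55 ± 0.89 in the authors' deposited table (SE, adjusted p = 0.0578), the uncalled member nearest to the threshold. Called directions changed 4 times along this locus, as often as at Lif, against 1 time each at Prdm14 and Lin28b and none at Tfcp2l1. At both Nr5a2 and Lif some of these changes rest on calls lost at an adjusted p below 0.01. In Nr5a2 that call is the fall on a mean signal of 2.53.

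Lin28b, on chromosome 10 from 45376617 to 45486314, is 110 kb long and had 6 falls, 1 rise and 2 uncalled sites. Its annotated start in the promoter table lies inside the gene at 45470201 on the minus strand. The sites gathered at that upper end and around the listed start.

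At the upper end of Lin28b, 3 sites next to each other fell. The central one, chr10:45486282-45486782, spans the higher-coordinate end of the gene, which is its 5′ end on the minus strand, and had a mean signal of 20.6 and -2.91 ± 0.47 in the authors' deposited table (SE, adjusted p = 2.00e-08), with implied counts of 36.4 in ESC and 4.84 in NPC. It overlaps chr10:45486614-45487114 by 168 bp, which had -2.32 ± 0.68 in the authors' deposited table (SE, adjusted p = 0.00137). Just inside the gene, chr10:45485768-45486268 had -1.96 ± 0.59 in the authors' deposited table (SE, adjusted p = 0.00160). The implied NPC counts of these 3 sites lay between 2.73 and 4.84.

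Within Lin28b, 3 further sites fell. The largest fall of the locus, chr10:45473092-45473592, upstream of the listed start, had -4.15 ± 1.04 in the authors' deposited table (SE, adjusted p = 0.000161). Downstream of the start by 0.523 kb, chr10:45469428-45469928 had -3.10 ± 1.15 in the authors' deposited table (SE, adjusted p = 0.00685), and at 23.8 kb chr10:45446161-45446661 had -3.06 ± 0.70 (SE, adjusted p = 5.57e-05). A weak site at 59.4 kb, with a mean signal of 2.50, was not called, at -1.23 ± 1.12 in the authors' deposited table (SE, adjusted p = 0.211).

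The outermost sites of the Lin28b window had no fall. At 14.1 kb above the gene, with no other annotated gene around it, chr10:45500148-45500648 rose with 4.44 ± 1.27 in the authors' deposited table (SE, adjusted p = 0.000598), on a mean signal of 3.68 and implied counts of 0.325 in ESC and 7.04 in NPC. On the other side, 40.7 kb from Lin28b, a site lay just inside the lower-coordinate boundary of Bves, a Popeye-domain gene. It had 0.27 ± 0.45 in the authors' deposited table (SE, adjusted p = 0.527) on a mean signal of 9.48.

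Lif, on chromosome 11 from 4257568 to 4272514, is 14.9 kb long and had a single site inside it. That site, chr11:4258691-4259191, 1.37 kb after the start of the gene, was not called, with 0.24 ± 0.40 in the authors' deposited table (SE, adjusted p = 0.542). Its mean signal of 11.8 was higher than that of 75.9% of listed sites, and the implied counts were 10.8 in ESC and 12.8 in NPC. The ligand gene thus had an SP1 site accessible in both cell types, and the calls of the locus lay outside the gene.

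Below Lif the sites belonged by position to its neighbours. Inside Castor1, chr11:4219372-4219872 rose with 1.38 ± 0.58 in the authors' deposited table (SE, adjusted p = 0.0152), next to the fall at the start of that gene. Between Castor1 and Osm, chr11:4228365-4228865 rose with 5.64 ± 1.16 in the authors' deposited table (SE, adjusted p = 3.19e-06), at 29.0 kb from Lif and with implied counts of 0.331 in ESC and 16.5 in NPC. Osm encodes oncostatin M, a cytokine that like LIF signals through gp130. Between Osm and Lif, 11.3 kb before the Lif start, chr11:4246045-4246545 fell with -4.26 ± 1.03 in the authors' deposited table (SE, adjusted p = 9.22e-05), from an implied 16.5 counts in ESC to 0.862 in NPC. These neighbouring sites, on either side of Osm, thus moved in opposite directions.

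Above Lif, 3 sites lie within Gm11958, an annotated lncRNA. The pair chr11:4294653-4295153 and chr11:4294961-4295461, sharing 192 bp, rose with 2.16 ± 0.82 and 1.58 ± 0.74 in the authors' deposited table (SE, adjusted p = 0.00877 and 0.0259). In the same lncRNA, 30.0 kb from the end of Lif, chr11:4302257-4302757 fell with -3.54 ± 0.63 in the authors' deposited table (SE, adjusted p = 2.71e-07), with implied counts of 27.1 in ESC and 2.33 in NPC. Of the 7 calls of this locus, 3 were lost at an adjusted p below 0.01, namely both Castor1 sites and the second site of the rising pair, which left 2 falls and 2 rises. The second site of that pair was lost with recomputed p-values too.

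**Figure D4:**
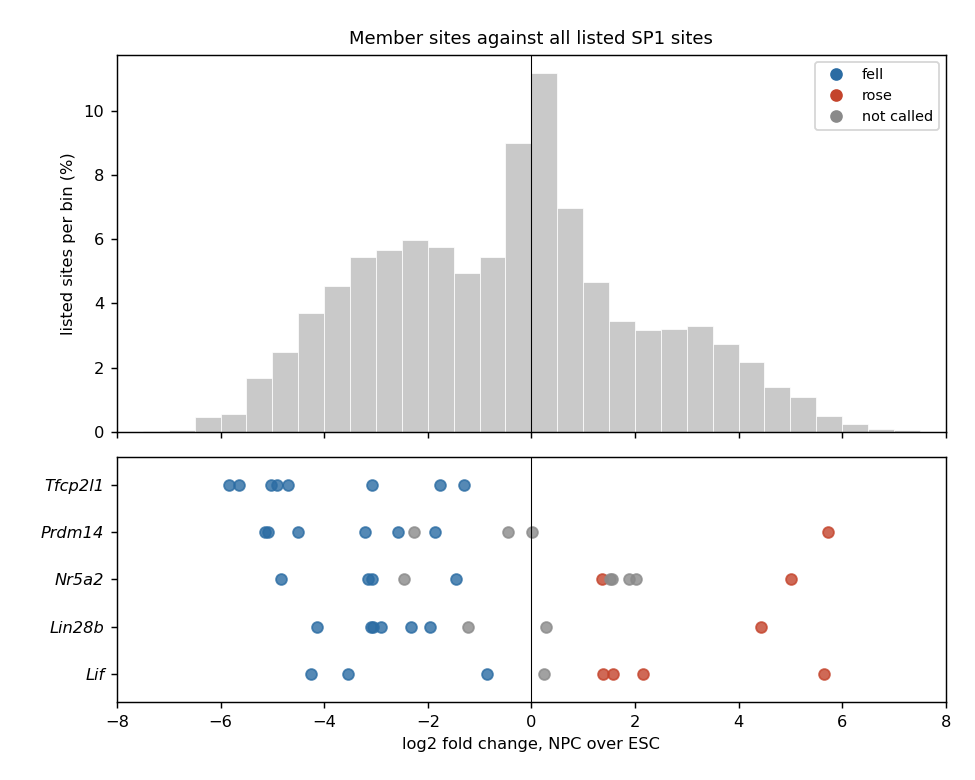
Upper panel, percent of the 9001 listed sites per bin of 0.5 in log2 fold change, NPC over ESC, and lower panel, the log2 fold change of each member site by locus, coloured by call. Tfcp2l1 lies wholly below 0, from -5.84 to -1.31, and the other loci have sites on both sides.

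The 5 windows shared few features beyond position. Overlapping sites formed 6 pairs, whose members had the same sign in all 6 and the same call in 5, and which share reads. Sites inside the member genes and outside them had similar shares of falls, 13 of 22 (59.1%) and 14 of 24 (58.3%). Rises were 2 (9.09%) and 6 (25%). Over all listed sites 32.6% fell and 22.8% rose. Where the nearest protein-coding gene was the member itself, 24 of 38 sites fell (63.2%) and 5 rose (13.2%). Of the 8 sites nearer to another gene 3 fell (37.5%) and 3 rose (37.5%). The rises outside the genes and the falls nearer to another gene were thus near the shares of all listed sites. The 11 uncalled sites had a median mean signal of 2.99 against 8.76 for the 35 called ones. Within the list, 8 sites were among the lowest 5% of log2 fold changes of all listed sites and 4 among the highest 5%. These shares describe sites chosen with earlier results of these data known, and no test was made over them.

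At Prdm14, Nr5a2 and Lif a called site lay not far beyond the window edge. Just outside the 50000 bp limit, a site 55.5 kb from Prdm14 had -2.49 ± 1.28 in the authors' deposited table (SE, adjusted p = 0.0364). At 53.2 kb from Nr5a2 the authors' deposited table lists -4.86 ± 1.23 (SE, adjusted p = 0.000118), and at 53.6 kb from Lif a site inside Tbc1d10a had 3.06 ± 1.16 (adjusted p = 0.00809). The nearest sites beyond the windows of Tfcp2l1 and Lin28b, at 63.2 and 87.0 kb, were not called. The farthest site inside a window was the rise within Ncoa2, 44.1 kb from Prdm14.

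Other genes of the pluripotent state were followed through a list, with the same windows. Of 46 genes, 8 lay in the listed regions and had 60 sites. Of these sites 26 fell (43.3%) and 13 rose (21.7%), with a median log2 fold change of -0.93. Over all 9001 listed sites 32.6% fell and 22.8% rose, so the share of rises was near that of all listed sites. At Zfp281, a zinc-finger gene of stem cells, 4 of 5 sites fell and none rose, the leading one at -5.06 ± 0.84 in the authors' deposited table (SE, adjusted p = 2.56e-08) and 44.4 kb from the gene. Prdm1, which encodes a germ cell regulator of the same family as Prdm14, had 5 falls and 1 rise among 10 sites, led by -5.74 ± 0.83 in the authors' deposited table (SE, adjusted p = 1.49e-10), 45.1 kb away. Gbx2, a homeobox gene downstream of LIF in stem cells, had 4 falls and 1 rise among 8 sites, led in the authors' deposited table by -3.48 ± 0.81 (SE, adjusted p = 6.78e-05).

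The same list held genes of Nodal signalling and DNA methylation. Lefty1, a Nodal inhibitor gene, had 4 falls and 1 rise among 6 sites, led in the authors' deposited table by -5.29 ± 1.16 (SE, adjusted p = 1.19e-05). Dnmt3l, a cofactor of de novo DNA methylation, had the same counts and a leading fall of -4.26 ± 1.2 in the authors' deposited table (SE, adjusted p = 0.000548). The Nodal ligand gene had 3 falls and 4 rises among 15 sites, led by a rise of 3.27 ± 0.51 in the authors' deposited table (SE, adjusted p = 7.19e-09). Tet1, which oxidises methylated cytosine, had 2 falls and 2 rises among 7 sites and a leading rise of 1.34 ± 0.27 in the authors' deposited table (SE, adjusted p = 3.26e-06). Lefty2, also a Nodal inhibitor gene, had 4 falls and 4 rises among 8 sites. At Lefty2 the leading site rose, with 5.25 ± 1.00 in the authors' deposited table (SE, adjusted p = 7.44e-07), 44.3 kb from the gene.

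Fewer pathway partners of the members lay in the listed regions. Of 26 genes of LIF and gp130 signalling, 2 lay there, Socs2 and Osm, and both had sites. Their 16 sites had 8 falls (50%) and 4 rises (25%), with a median log2 fold change of -0.46. The shares over all listed sites were 32.6% and 22.8%. Socs2, an inhibitor of cytokine signalling, had 6 falls and 1 rise among 10 sites, the leading fall at -7.03 ± 1.13 in the authors' deposited table (SE, adjusted p = 2.59e-09), 39.0 kb from the gene. Osm had 2 falls and 3 rises among 6 sites, 5 of which are also sites of the Lif window, its leading site, the rise of 5.64 in the authors' deposited table, included. Of 23 genes of the LIN28 and let-7 pathway, 3 lay in the listed regions. They had 28 sites, with 8 falls (28.6%) and 7 rises (25%) and a median of -0.03. Both shares were near those of all listed sites. Hmga2, a chromatin protein gene repressed by let-7, had 5 rises and 3 falls among 11 sites, led by 2.86 ± 0.45 in the authors' deposited table (SE, adjusted p = 6.22e-09) inside the gene. Around the let-7i gene Mirlet7i 1 of 5 sites fell and none rose, that fall being -5.13 ± 0.84 in the authors' deposited table (SE, adjusted p = 1.74e-08) at 27.9 kb. Dis3l2, an exonuclease that degrades uridylated let-7 precursors, had 4 falls and 2 rises among 12 sites, led by a rise of 3.83 ± 1.04 in the authors' deposited table (SE, adjusted p = 0.00047).

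Of 9 nuclear receptor partners of Nr5a2, 3 lay in the listed regions, Ncoa2, Prox1 and Esrrg, and all had sites. Their 37 sites had 8 falls (21.6%) and 12 rises (32.4%), with a median of -0.06, against 32.6% and 22.8% of all listed sites. Prox1, a homeobox gene whose protein binds Nr5a2, had 5 rises and no fall among 8 sites, led by 5.12 ± 1.15 in the authors' deposited table (SE, adjusted p = 1.83e-05) inside the gene. Esrrg, an orphan nuclear receptor gene, had 6 rises and 2 falls among 20 sites, led by 5.42 ± 0.84 in the authors' deposited table (SE, adjusted p = 2.41e-09). All 9 sites of the Ncoa2 window lie in the Prdm14 window too, so its 6 falls and 1 rise are no further evidence, and its leading site is the fall of -4.50 listed there in the authors' deposited table. Of 10 Prdm family genes and Prdm14 partners, 2 lay in the listed regions. Their 14 sites had 6 falls (42.9%) and 2 rises (14.3%) with a median of -1.27. Besides Prdm1, given above, these were sites of Prdm4, with 1 fall and 1 rise among 4, led by 4.43 ± 1.18 in the authors' deposited table (SE, adjusted p = 0.000278).

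For orientation, the cell types were checked against sites near marker genes, since no expression was measured. Near 7 stem cell markers 27 of 55 sites fell and 12 rose, 18 of these sites being those of Tfcp2l1 and Prdm14. Without these, 13 of 37 fell (35.1%) and 11 rose (29.7%), against 32.6% and 22.8% of all listed sites. Near the 3 of 8 neural progenitor markers with sites, 13 of 20 rose and 2 fell. Near 2 of 4 neuronal markers 12 of 26 rose and 8 fell. Near 2 of 4 markers of mesoderm and endoderm 1 of 8 rose and 4 fell. A marker outside the listed regions could have no listed site.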

How the data were processed

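ATAC-seq libraries of R1 ESC and NPC (3 each) were compared by the submitters, whose processing notes name mm10, BWA 2.1, Picard 2.23.8, MACS2 2.2.7, SAMtools 1.9 and DESeq2. Per the file headers, the deposited table holds for each 500 bp site a mean normalized signal, a log2 fold change with its standard error, a p-value and an adjusted p-value. The choice of SP1 sites, the tools' settings, the Tn5 offset and any shrinkage of fold changes are not stated there; p-values recomputed from fold change over standard error were at least the deposited ones at 46 of 46 member sites (median ratio 2.70). Choosing sites by binding in 1 cell type could shift the balance of falls and rises. Whether coordinates count from 0 or 1 is not given either, so distances may be off by 1 bp.

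From these values sites were assigned to RefSeq genes by midpoint, called at the deposited adjusted p below 0.05 and counted, with pandas 2.3.3 and SciPy 1.17.1. No test of its own was run on the counts. Members and gene lists were chosen with earlier results of these data known. Every member site is reported. Of each listed gene the counts and the site of smallest adjusted p-value are given. Implied levels take the mean signal as the mean over 3 libraries of each cell type. Exon, intron and UTR positions were not analysed here. Adjustment and call functions were tested on simulated fold changes with p-values from fold change over standard error. Standard errors there were capped below the member median of 0.96, so noisier sites were not covered. The window function was checked against a direct count over the listed sites.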

Additional observations from a re-analysis of the deposited data

How the results depend on the processing

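Falls among the member sites (27) stayed within 1.5 times under all alternatives but 1, and no called site changed sign. Counting only sites inside the genes left 13 falls and 2 rises among 22 sites, since fewer sites were counted. Rises (8) dropped to 5 with a 25000 bp window, to 5 when the nearest protein-coding gene had to be the member, and to 4 without the Lif locus, which was tried only after seeing the data. Again fewer sites entered. Without the Tfcp2l1 locus 19 of 38 sites fell. Centred on the median of all listed sites, -0.29, 24 sites fell and 8 rose, and over all listed sites 22.8% fell and 23.1% rose. Centring also used p-values recomputed from the centred fold change over standard error. The 3 falls it lost were lost with recomputed p-values alone too, so these losses cannot be put down to centring. With p-values recomputed from fold change over standard error the counts were 24 and 7, against 26.5% and 18.8% of all listed sites. No paired analysis was possible because the table holds no values per library, and for the same reason no replicate was left out. Low mean signal limits single sites, above all at Nr5a2.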
